A study of Mus musculus with 6 samples.

Results

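The CCN genes encode secreted matrix-associated proteins, and the Tead genes encode the transcription factors that carry the Hippo pathway's output to DNA. Ankrd1, a nuclear ankyrin-repeat protein gene best known from heart and skeletal muscle, is often read together with Ctgf and Cyr61 as a target of the same factors. The 10 genes were taken by symbol from count tables that name 23329 genes: the CCN genes Ctgf (now Ccn2), Cyr61 (Ccn1), Nov (Ccn3), Wisp1 (Ccn4) and Wisp2 (Ccn5), then Ankrd1, then Tead1, Tead2, Tead3 and Tead4. All 10 had a row in every table, and all 10 passed the filter on low counts, as did 13478 genes in all.

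RNA was sequenced from primary cultures of mesenchymal cells of the C57 mouse small intestine, 3 from embryos at E14.5 and 3 from adult mice whose age the labels do not give. The adult gut was slit open and its villi scraped away, whereas the embryonic gut was cut in pieces. Both were stripped of epithelium with EDTA and digested with collagenase and dispase. The cells were plated in medium with fetal bovine serum and 1 µM Y27632, an inhibitor of ROCK kinases. RNA came from passages 2 to 3. Every value below is therefore from cultured and passaged cells of both stages that had been plated with this inhibitor. What the inhibitor did to these values was not tested. Whether the replicate cultures derive from separate animals is not stated in the labels. The p-values set the stage difference against the spread between these cultures, and that spread may be only technical.

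In the Hippo pathway, the kinases MST1/2 act through the kinases LATS1/2, which phosphorylate the coactivators YAP and TAZ and keep them out of the nucleus. When the kinases are quiet, as in spread cells with a tense actin skeleton, YAP and TAZ enter the nucleus and bind TEAD factors, which recognise the DNA motif GGAATG. Ctgf, Cyr61 and Ankrd1 are widely used readouts of this step, and they also respond to SRF with its actin-regulated coactivators and, for Ctgf, to TGF-beta. CCN proteins bind integrins, heparan sulfate and growth factors. Most have the same set of modules, and Wisp2 lacks the C-terminal one.

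Gene counts ranged from 30430596 to 32672370 in E14.5 libraries and from 18850224 to 29903594 in adult libraries, with adult replicate 2 the shallowest. The mesenchyme markers Col1a1, Col1a2, Col3a1, Vim, Pdgfra, Pdgfrb and Thy1 had a summed level between 12019 and 19562 CPM in the E14.5 cultures and between 11057 and 18170 CPM in the adult ones, most of it from Col1a1, Col1a2, Col3a1 and Vim. CPM is the count scaled to a common library total, here with TMM, a method that corrects for composition. Within that sum, 4 of the 7 markers (Col1a2, Pdgfra, Pdgfrb and Thy1) had every E14.5 library below every adult library, against 12% of all genes tested. Of the 7, only Pdgfra, a receptor gene of fibroblasts, passed the edgeR test, which 1.08% of all genes passed. Pdgfra measured 2.47, 3.85 and 4.45 CPM in E14.5 replicates 1, 2 and 3, against 29.5, 81.0 and 31.7 CPM in adult replicates 1, 2 and 3 (log2 fold change -3.72, SE 0.50, adjusted p = 0.036, edgeR). Thy1 averaged 89.8 ± 45.5 CPM in E14.5 cultures and 295 ± 106 CPM in adult cultures (SD, n = 3 each). The smooth muscle markers Acta2, Tagln, Myh11, Des, Cnn1 and Actg2 had a larger sum. It was 24688 to 35826 CPM in the E14.5 cultures and 18422 to 29616 CPM in the adult ones. Of the 6, only Des had groups that did not overlap. Des averaged 2168 ± 452 CPM in E14.5 cultures and 690 ± 407 CPM in adult cultures (SD, n = 3 each). Markers of other cells did not lie evenly over the libraries. The 6 leukocyte markers together reached 1499 CPM in E14.5 replicate 3, with 118 and 267 CPM in the other E14.5 cultures, while the adult cultures had 15.3 to 137 CPM. The 6 endothelial markers had 8.65 to 32.2 CPM in the E14.5 cultures, whereas adult replicate 2 had 1846, adult replicate 3 had 390 and adult replicate 1 had 20.6 CPM. The 6 mesothelial markers had 765 CPM in E14.5 replicate 2, 158 and 148 CPM in the other E14.5 cultures, and between 514 and 1423 CPM in the adult ones. Epithelial markers, 5 of which had a row, had 25.3 to 61.8 CPM in the E14.5 cultures and 10.03 to 14.3 CPM in the adult ones. Nearly all of it was Krt20, at 24.4 to 61.4 CPM in the E14.5 cultures and 9.09 to 13.7 CPM in the adult ones, and Epcam, Cdh1, Vil1 and Cdx1 were each at most 0.803 CPM in any library. Pericyte markers had 30.2 to 298 CPM in the E14.5 cultures and 76.1 to 88.7 CPM in the adult ones, a sum whose members went opposite ways. Rgs5 averaged 110 ± 117 CPM in E14.5 cultures, against 3.81 ± 3.41 CPM in adult cultures, and Cspg4 10.6 ± 8.29 CPM in E14.5 cultures and 57.0 ± 10.5 CPM in adult cultures (SD, n = 3 each). Abcc9 and Kcnj8 also had every E14.5 library above every adult library. Markers of nerve and glia and of interstitial cells of Cajal reached at most 12.1 CPM (nerve and glia) and 19.8 CPM (interstitial cells) in any library. No marker with a row was at 0 in all 6 libraries. What these cells contribute to the results below was not tested. A value given without a library drops the whole culture, so it cannot single out these cells. In such bulk cultures, fewer cells of a type and less RNA per cell cannot be told apart.

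None of the 10 genes passed the edgeR quasi-likelihood test of E14.5 against adult at an adjusted p of 0.05, which 146 of 13478 genes, or 1.08%, did (0.245% higher and 0.838% lower in E14.5). Wisp2 came closest and had by far the widest gap between the groups. Below an unadjusted p of 0.05 were 4 of the 10 (Cyr61, Nov, Wisp2 and Ankrd1), each with a negative log2 fold change, against 17.9% of all genes tested. DESeq2 called 1, Wisp2, at a setting where it called 10.6% of all genes, and limma-voom also called 1, again Wisp2, where it called 1.02%. In 4 of the 10, all CCN genes, every E14.5 library lay below every adult library, against 12% of all genes tested. None of the 10 had every E14.5 library above every adult library, against 12.1%.

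**Figure D1:**
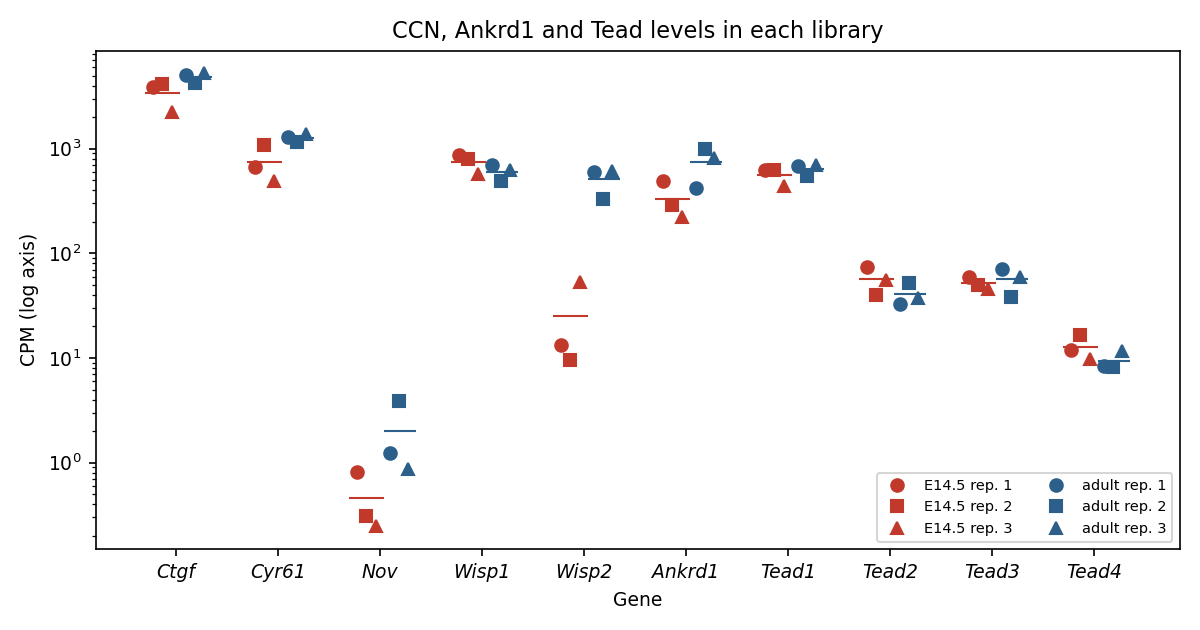
CPM on a log axis (vertical) for each of the 10 genes (horizontal), with 1 point per library, E14.5 in red left of adult in blue and a line at each group's mean. The points of the groups are far apart for Wisp2, whose E14.5 cultures had 9.59 to 53.3 CPM and whose adult cultures had 328 to 606 CPM, and overlap for Wisp1, Ankrd1 and all 4 Tead genes.

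Ctgf encodes connective tissue growth factor, a matrix-associated protein of fibroblasts, and lies on chromosome 10 of GRCm38 (the assembly called mm10) from 24595442 to 24598683 on the plus strand. It measured 3893, 4171 and 2241 CPM in E14.5 replicates 1, 2 and 3, against 5032, 4237 and 5238 CPM in adult replicates 1, 2 and 3. Every E14.5 library was below every adult library, but E14.5 replicate 2 and adult replicate 2 were nearly level, and E14.5 replicate 3 stood well below the other 5. Its log2 fold change of E14.5 over adult was -0.49 (SE 0.27, adjusted p = 0.411, edgeR). Without E14.5 replicate 3, the library with the highest leukocyte sum, it was -0.26 (SE 0.19). The spread was wider among E14.5 cultures, with a coefficient of variation of 30.4% against 10.9% among adult cultures.

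Cyr61 encodes a sister protein that promotes adhesion through integrins, and lies on chromosome 3 from 145646976 to 145649981 on the minus strand. It measured 674, 1092 and 487 CPM in E14.5 replicates 1, 2 and 3, against 1296, 1151 and 1371 CPM in adult replicates 1, 2 and 3. The groups did not overlap, E14.5 replicate 2 lay just under the adult range, and E14.5 replicate 3 was again the lowest. Cyr61 had a log2 fold change of -0.76 (SE 0.30, adjusted p = 0.260, edgeR). Without E14.5 replicate 2 it was -1.13 (SE 0.20) and passed the test at adjusted p = 0.0497, in a fit that called 3.42% of all genes. Across the 6 fits that each left out 1 library, the adjusted p ran up to 0.568. Ctgf and Cyr61 kept a near-constant proportion in adult cultures, where the ratio of their CPM was 3.88, 3.68 and 3.82, against 5.78, 3.82 and 4.60 in E14.5 cultures. The ratio reflects transcript length as well as level, so only its change between libraries can be read. E14.5 replicate 2 fell inside the adult range, and E14.5 replicate 1 had the least Cyr61 relative to Ctgf.

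Ankrd1 lies on chromosome 19 from 36111961 to 36120099 on the minus strand. It measured 491, 289 and 221 CPM in E14.5 replicates 1, 2 and 3, against 420, 993 and 814 CPM in adult replicates 1, 2 and 3. The groups overlapped, because E14.5 replicate 1 was above adult replicate 1. Its fitted log2 fold change came to -1.15 (SE 0.42, adjusted p = 0.226, edgeR). When adult replicate 2 (highest endothelial sum) and E14.5 replicate 3 (highest leukocyte sum) were both left out, a choice made after seeing the data, it was -0.67 (SE 0.43). Adult replicate 2 had the highest Ankrd1 and the highest endothelial markers of all 6 libraries.

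The promoters of Cyr61 and Ankrd1 are shown because both genes are used as TEAD readouts and both windows hold the TEAD motif. Each run gives the 250 bases before the RefSeq gene start on GRCm38.p6, 5′ to 3′ on the gene's own strand, and capitals mark GGAATG or its reverse complement CATTCC. The Cyr61 window is chr3:145649986-145650235 and the Ankrd1 window is chr19:36119845-36120094, both on the minus strand. The gene spans given above come from GENCODE M21, which starts Ankrd1 further upstream, at 36120099. The Ankrd1 window therefore lies inside that GENCODE span, and its positions are counted from the RefSeq start only.
Cyr61: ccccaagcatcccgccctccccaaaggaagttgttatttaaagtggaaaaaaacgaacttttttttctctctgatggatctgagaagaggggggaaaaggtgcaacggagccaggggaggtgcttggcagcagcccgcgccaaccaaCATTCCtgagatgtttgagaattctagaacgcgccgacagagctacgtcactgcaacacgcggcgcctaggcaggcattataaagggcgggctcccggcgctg
Ankrd1: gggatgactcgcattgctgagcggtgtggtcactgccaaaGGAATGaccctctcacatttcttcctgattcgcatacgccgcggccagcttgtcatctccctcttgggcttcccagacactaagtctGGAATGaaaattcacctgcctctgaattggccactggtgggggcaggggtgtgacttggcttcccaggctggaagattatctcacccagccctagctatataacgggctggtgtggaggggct

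The Cyr61 window held 1 match, from 103 to 98 bases before the gene start. The Ankrd1 window held 2, from 210 to 205 and from 123 to 118 bases before the RefSeq start. Of 32851 RefSeq promoter windows of the same length, 12.6% held at least 1 match on either strand and 0.992% held at least 2. RefSeq windows were matched for 4 of the 10 genes, the other 2 being Tead2, with 1 window and no match, and Tead3, with 3 windows of which 2 held a match. No CArG box, the motif that SRF binds, was found in any of these 6 windows, and 1.47% of all windows held one. A match describes letters in the window and is not a measured binding site.

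Wisp2, also called Ccn5, was the CCN gene that differed most between the stages. Known from vascular smooth muscle and fibroblasts, it lies on chromosome 2 from 163820861 to 163833146 on the plus strand. It measured 13.2, 9.59 and 53.3 CPM in E14.5 replicates 1, 2 and 3, against 597, 328 and 606 CPM in adult replicates 1, 2 and 3. The highest E14.5 library was still far under the lowest adult library, and within the groups E14.5 replicate 3 was high and adult replicate 2 was low. These values rest on 423, 309 and 1726 counts in E14.5 libraries and 15775, 6602 and 17239 counts in adult libraries, so counting error is small beside the spread between cultures.

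The fitted level of Wisp2 in adult cultures was 20.1 times that in E14.5 cultures, a log2 fold change of -4.33 (SE 0.76). The adjusted p was 0.0673 in edgeR, the gene being number 223 of 13478 by p. Across the 14 alternatives the log2 fold change lay between -5.73 and -3.94, and the sign follows from groups that do not overlap. DESeq2 gave an adjusted p = 2.9e-10 and limma-voom an adjusted p = 0.037. Without E14.5 replicate 3 the estimate was -5.48 (SE 0.42, adjusted p = 0.0248, edgeR), in a fit that called 0.807% of all genes. Without adult replicate 3 the adjusted p was 0.240 in edgeR, the highest of all alternatives. With adult replicate 2 and E14.5 replicate 3 both left out, the estimate was -5.73 (SE 0.24, adjusted p = 0.0278, edgeR), where 0.266% of all genes were called. Among the mesenchyme and pericyte markers, Pdgfra, Thy1, Pdgfrb, Col1a2 and Cspg4 were, like Wisp2, lower in every E14.5 library than in any adult library. So were the endothelial markers Pecam1, Cdh5, Kdr, Tek and Tie1, the markers Lrrn4 and Ret, and 12% of all genes tested. Rgs5, Abcc9, Kcnj8, Des, Krt20 and 5 of the 6 leukocyte markers went the other way, as did 12.1% of all genes tested. Col1a1, Col3a1, Vim and Notch3 overlapped. The part of these genes in the Wisp2 difference was not tested. Taken by shared title prefix, the E14.5 library lay below its adult counterpart by a log2 difference of -5.49 for replicates 1, -5.09 for replicates 2 and -3.50 for replicates 3.

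Wisp1, the gene of WNT1-inducible signaling pathway protein 1, a fibroblast and bone matrix protein, had a positive value where Wisp2 had a negative one. It lies on chromosome 15 from 66891320 to 66923201 on the plus strand. It measured 866, 793 and 576 CPM in E14.5 replicates 1, 2 and 3, against 692, 495 and 625 CPM in adult replicates 1, 2 and 3. The groups overlapped through E14.5 replicate 3, with a log2 fold change of 0.30 (SE 0.21, adjusted p = 0.529, edgeR). The ratio of Wisp1 to Wisp2 CPM was 65.4, 82.7 and 10.8 in E14.5 libraries, against 1.16, 1.51 and 1.03 in adult libraries. That ratio did not overlap between the groups. It was not tested, and an exact permutation test of 3 against 3 cannot give a p under 0.10.

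Nov, also called Ccn3, was barely detected. It lies on chromosome 15 from 54745702 to 54754039 on the plus strand, and its protein binds integrins and NOTCH1. It had 26, 10 and 8 counts in E14.5 replicates 1, 2 and 3, against 33, 78 and 25 counts in adult replicates 1, 2 and 3. The same libraries gave 0.813, 0.310 and 0.247 CPM for E14.5, against 1.25, 3.87 and 0.879 CPM for adult cultures. On counts alone, the exact 95% Poisson interval was 17.0 to 38.1 counts for E14.5 replicate 1 and 16.2 to 36.9 counts for adult replicate 3, and these intervals overlap. Such intervals cover counting error only. Its fitted log2 fold change came to -2.11 (SE 0.77, adjusted p = 0.228, edgeR) and -1.22 (SE 0.66) without adult replicate 2, which had the most Nov and the highest endothelial markers. Wisp3, the remaining CCN gene of the mouse and no member of the set, had 0 counts in all 6 libraries. A count of 0 allows up to 0.0938 CPM in the deepest E14.5 library and up to 0.149 CPM in adult replicate 2, taking 3 counts as the limit.

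**Figure D2:**
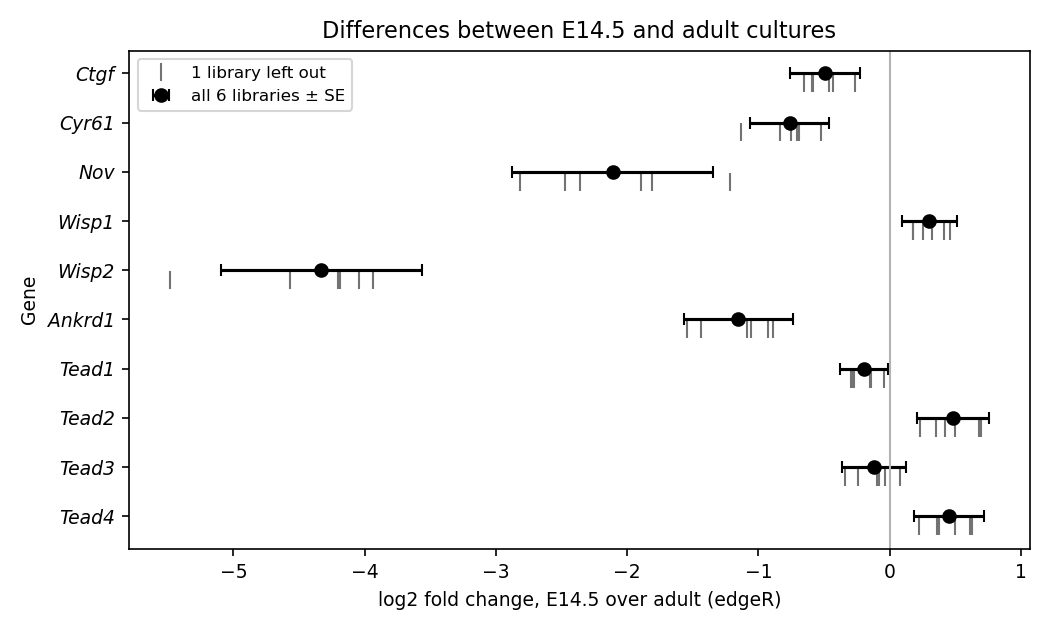
The log2 fold change of E14.5 over adult (horizontal) for each gene (vertical) from edgeR, as a point with its SE (3 libraries a group) above ticks for the 6 fits that each left out 1 library. Wisp2 stands at -4.33, with ticks from -5.48 to -3.94, and Tead3 is the only gene with ticks on both sides of 0.

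The 4 Tead genes are paralogs that share the DNA-binding TEA domain and the YAP/TAZ-binding domain, and none had groups that did not overlap. Tead1, the broadly expressed member needed for heart development in mice, lies on chromosome 7 from 112679318 to 112906807 on the plus strand. It measured 627, 620 and 441 CPM in E14.5 replicates 1, 2 and 3, against 686, 553 and 692 CPM in adult replicates 1, 2 and 3. E14.5 replicate 3 was the lowest library and the rest were intermixed. A gene model on the same strand, Gm44462, overlaps Tead1, and how the authors split shared reads is unknown. A log2 fold change of -0.19 (SE 0.19, adjusted p = 0.677, edgeR) resulted, or -0.05 (SE 0.16) with E14.5 replicate 3 left out.

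Tead2, known in mice from early embryos and neural precursors, lies on the same chromosome from 45215753 to 45233644 on the plus strand. It measured 74.5, 40.3 and 55.6 CPM in E14.5 replicates 1, 2 and 3, against 33.0, 51.9 and 37.1 CPM in adult replicates 1, 2 and 3. E14.5 replicate 2 lay within the adult range, and the other E14.5 libraries lay above it. For Tead2 the fitted log2 fold change came to 0.48 (SE 0.27, adjusted p = 0.435, edgeR).

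Tead3, known from placenta, lies on chromosome 17 from 28331671 to 28350817 on the minus strand. It measured 59.8, 49.7 and 45.7 CPM in E14.5 replicates 1, 2 and 3, against 71.1, 38.2 and 59.6 CPM in adult replicates 1, 2 and 3. The E14.5 values lay inside the adult range, with a log2 fold change of -0.12 (SE 0.24, adjusted p = 0.865, edgeR) that was 0.08 (SE 0.24) without adult replicate 1. Tead4, needed for trophectoderm in the mouse blastocyst, lies on chromosome 6 from 128224288 to 128300823 on the minus strand. It measured 12.0, 16.7 and 9.89 CPM in E14.5 replicates 1, 2 and 3, against 8.37, 8.24 and 11.6 CPM in adult replicates 1, 2 and 3. Adult replicate 3 overlapped the E14.5 range, at a log2 fold change of 0.45 (SE 0.26, adjusted p = 0.452, edgeR).

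Paired by title prefix, each Tead gene took both signs. The log2 difference for replicates 1, 2 and 3 was -0.13, 0.16 and -0.65 for Tead1 and 1.17, -0.36 and 0.58 for Tead2. It was -0.25, 0.38 and -0.38 for Tead3 and 0.52, 1.01 and -0.22 for Tead4. Ctgf and Cyr61 were negative in all 3 pairs, but replicates 2 gave only -0.02 and -0.08, against -0.37 and -0.94 for replicates 1 and -1.22 and -1.49 for replicates 3. Ankrd1 gave 0.23, -1.78 and -1.88 in the same order.

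Levels of different genes were set side by side as CPM per kilobase of exon, using the union of coding-transcript exons in GENCODE M21, since counts grow with transcript length. Ctgf led in both groups, at 1238 ± 376 CPM per kb in E14.5 cultures and 1743 ± 191 CPM per kb in adult cultures (SD, n = 3 each). In E14.5 cultures the order of mean CPM per kb then ran Cyr61 (372), Ankrd1 (165), Wisp1 (146), Tead1 (56.0), Tead3 (16.8), Tead2 (16.2), Wisp2 (14.8), Tead4 (3.58) and Nov (0.159). Among these neighbours, the libraries of Cyr61 and Ankrd1 overlapped, as did those of Ankrd1 and Wisp1, and those of Tead3, Tead2 and Wisp2. In adult cultures it ran Cyr61 (630), Ankrd1 (367), Wisp2 (297), Wisp1 (119), Tead1 (64.1), Tead3 (18.3), Tead2 (11.6), Tead4 (2.62) and Nov (0.697). There, the libraries of Cyr61 and Ankrd1 did not overlap, whereas those of Ankrd1 and Wisp2 did, as did those of Tead3 and Tead2. Which transcript ends these cells use is not known, so values per kilobase of Tead1, whose exons span 10.1 kb, are uncertain.

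Shares of each family were compared as values, with no test. Wisp2 held 0.402%, 0.253% and 2.60% of the summed CCN level per kb in E14.5 libraries, against 11.8%, 7.99% and 11.6% in adult libraries. The share of Wisp1 was 8.87%, 7.05% and 9.48% in E14.5 libraries, against 4.62%, 4.07% and 4.03% in adult libraries. Ctgf held 67.7% to 73.3% in E14.5 and 61.7% to 64.0% in adult libraries, so the groups did not overlap for Wisp2, Wisp1 or Ctgf, while the share of Cyr61 overlapped. Shares within a family add up to the whole, so one share cannot move alone. Tead1 held most of the summed Tead level per kb at both stages, 56.8% to 65.6% in E14.5 and 65.1% to 67.5% in adult libraries. Tead4 held the least, 3.15% to 4.94% in E14.5 and 2.26% to 3.16% in adult libraries. The summed Tead level itself was 106, 94.0 and 77.4 CPM per kb in E14.5 replicates 1, 2 and 3, against 103, 84.6 and 102 CPM per kb in adult replicates 1, 2 and 3, and these overlapped.

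**Figure D3:**
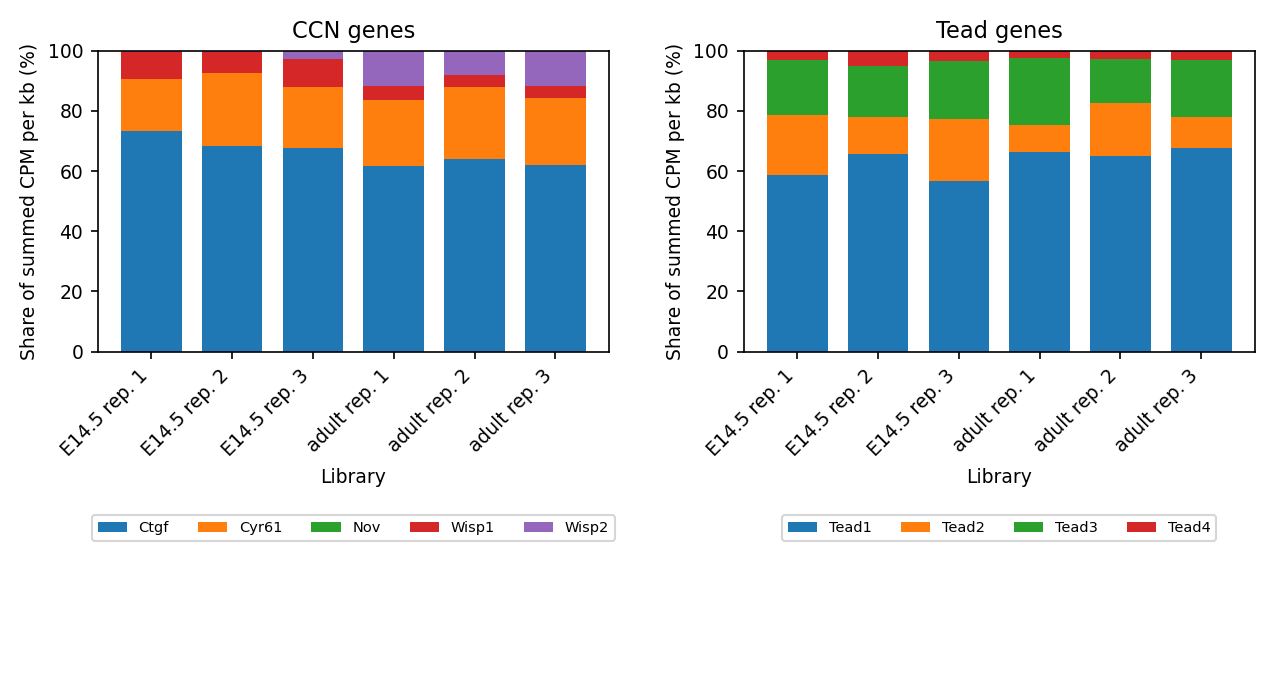
Share of the summed CPM per kb (vertical, percent) held by each gene in each library (horizontal), for the CCN genes (left) and the Tead genes (right), with E14.5 libraries left of adult libraries. Wisp2 is a thin band of 0.253% to 2.60% in E14.5 libraries and of 7.99% to 11.8% in adult libraries, while Tead1 fills more than the other Tead genes together in all 6.

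The genes whose pattern over the 6 libraries was nearest to Ctgf, the CCN gene of highest CPM, were Thbs1, Vgll3 and Lats2, found among all 13478 tested. Nearness was the root mean square difference of log2 CPM after each gene was centred on its own mean, 0.072 for Thbs1, 0.11 for Vgll3 and 0.14 for Lats2. Thbs1 encodes thrombospondin 1. Vgll3 encodes a cofactor that binds TEAD proteins, and Lats2 encodes a Hippo kinase that is itself used as a YAP target. Lats2 measured 224, 286 and 168 CPM in E14.5 replicates 1, 2 and 3, against 340, 309 and 319 CPM in adult replicates 1, 2 and 3, and its log2 fold change of -0.51 (SE 0.20) did not pass the test (adjusted p = 0.254, edgeR). Vgll3 measured 226, 210 and 118 CPM in E14.5 libraries, against 252, 194 and 244 CPM in adult libraries, so its groups overlapped. What these genes and Ctgf share most plainly is a low value in E14.5 replicate 3. The 3 genes nearest to Tead1 were Zc3h7a (0.043), Rab6a (0.045) and the integrin gene Itgav (0.048), on the same measure.

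**Figure D4:**
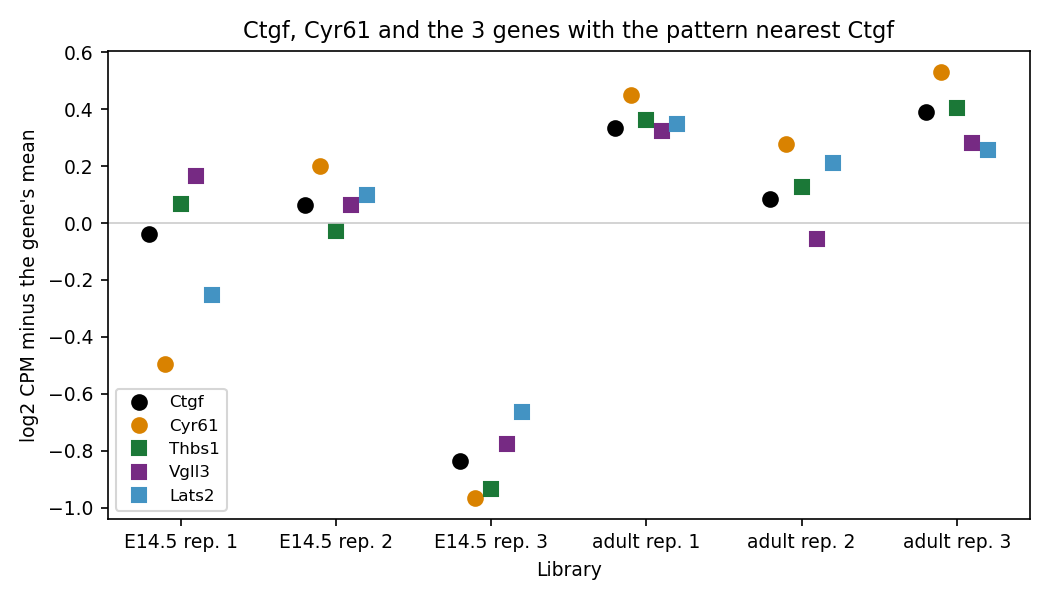
The log2 CPM minus each gene's mean over the 6 libraries (vertical) by library (horizontal), for Ctgf and Cyr61 (circles) and the 3 genes nearest to Ctgf (squares). All 5 genes are lowest in E14.5 replicate 3, where Ctgf had 2241 CPM, and Cyr61 departs from the others in E14.5 replicate 1.

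Transcripts of the coactivators that TEAD factors need were detected at both stages, and their proteins were not measured. Yap1, named after its values were seen, measured 303, 296 and 204 CPM in E14.5 replicates 1, 2 and 3, against 371, 281 and 320 CPM in adult replicates 1, 2 and 3. Wwtr1, the gene of TAZ, measured 339, 402 and 243 CPM in E14.5 libraries, against 399, 384 and 378 CPM in adult libraries. Both overlapped between the groups, with log2 fold changes of -0.28 (SE 0.19) and -0.24 (SE 0.19). As for Ctgf, E14.5 replicate 3 was the lowest library for each.

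Of 29 tested genes in a list of the Hippo pathway (31 genes, 2 of which, Vgll1 and Vgll2, were too low to test), 1 rose in E14.5 cultures and none fell, by edgeR at an adjusted p of 0.05, which 1.08% of all genes passed. The list's median log2 fold change was -0.17, against 0.01 over all genes tested, and 19 of the 29 were negative. Below an unadjusted p of 0.05, 2 were higher and 4 lower, a share near the 17.9% of all genes tested. The gene that rose was Amot, the gene of angiomotin, an actin- and junction-bound protein that holds YAP in the cytoplasm. Amot measured 194, 239 and 126 CPM in E14.5 replicates 1, 2 and 3, against 32.4, 48.4 and 41.2 CPM in adult replicates 1, 2 and 3. The lowest E14.5 library was well above the highest adult library, giving a log2 fold change of 2.19 (SE 0.28, adjusted p = 0.034, edgeR). The call was lost without E14.5 replicate 1 (adjusted p = 0.123), adult replicate 1 (0.0869), adult replicate 2 (0.0697) or adult replicate 3 (0.184).

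Its relative Amotl2, the list member of highest CPM that did not pass, had the opposite sign. Amotl2, which is also a YAP target, measured 477, 425 and 364 CPM in E14.5 replicates 1, 2 and 3, against 617, 547 and 712 CPM in adult replicates 1, 2 and 3. The groups did not overlap, with a log2 fold change of -0.57 (SE 0.16, adjusted p = 0.148, edgeR). Map4k4, a kinase upstream of LATS, averaged 357 ± 84.3 CPM in E14.5 cultures and 432 ± 55.6 CPM in adult cultures (SD, n = 3 each). DESeq2 called 4 of the 29, where it called 10.6% of all genes, so the count is not a result about the list. Amot and Stk4, the gene of the Hippo kinase MST1, were higher, and Frmd6 and Amotl2 were lower. Stk4 and Frmd6 are named after their values were seen. Stk4 averaged 120 ± 21.6 CPM in E14.5 cultures and 80.0 ± 2.09 CPM in adult cultures, and Frmd6, the gene of a FERM-domain activator of the pathway, 69.9 ± 7.90 CPM in E14.5 cultures and 121 ± 24.7 CPM in adult cultures (SD, n = 3 each).

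Of 19 tested genes in a list of YAP and TAZ targets that leaves out Ctgf, Cyr61 and Ankrd1, none passed the edgeR test. Below an unadjusted p of 0.05, 1 was higher and 6 were lower, against 17.9% of all genes. DESeq2 called 5 of the 19, where it called 10.6% of all genes, and limma-voom 0, where it called 1.02%. The median log2 fold change was -0.38, and 14 of the 19 were negative. The median ran from -0.57 without E14.5 replicate 2 to -0.25 without E14.5 replicate 3. Lats2, Amotl2 and Ptpn14 are in both this list and the Hippo list. In 6 of the 19, every E14.5 library lay below every adult library, against 12% of all genes. In 1 of the 19, every E14.5 library lay above every adult library, against 12.1% of all genes.

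The 3 targets of highest CPM were Ccdc80, F3 and Crim1. Ccdc80, a secreted matrix protein gene, measured 1403, 1212 and 1462 CPM in E14.5 replicates 1, 2 and 3, against 3345, 1682 and 3200 CPM in adult replicates 1, 2 and 3. Its groups did not overlap, at a log2 fold change of -1.01 (SE 0.28, adjusted p = 0.143, edgeR). Crim1, the gene of a membrane protein with BMP-binding repeats, averaged 612 ± 90.9 CPM in E14.5 cultures and 950 ± 122 CPM in adult cultures, and F3, the gene of tissue factor, 859 ± 275 CPM in E14.5 cultures and 1118 ± 375 CPM in adult cultures (SD, n = 3 each). The target list also held genes of opposite sign, 2 of which are named after their values were seen. Nt5e, the gene of the surface enzyme CD73, averaged 5.27 ± 2.97 CPM in E14.5 cultures and 26.4 ± 13.0 CPM in adult cultures, and the Fat-Dachsous signalling gene Fjx1 51.1 ± 30.7 CPM in E14.5 cultures and 14.3 ± 1.46 CPM in adult cultures (SD, n = 3 each).

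**Figure D5:**
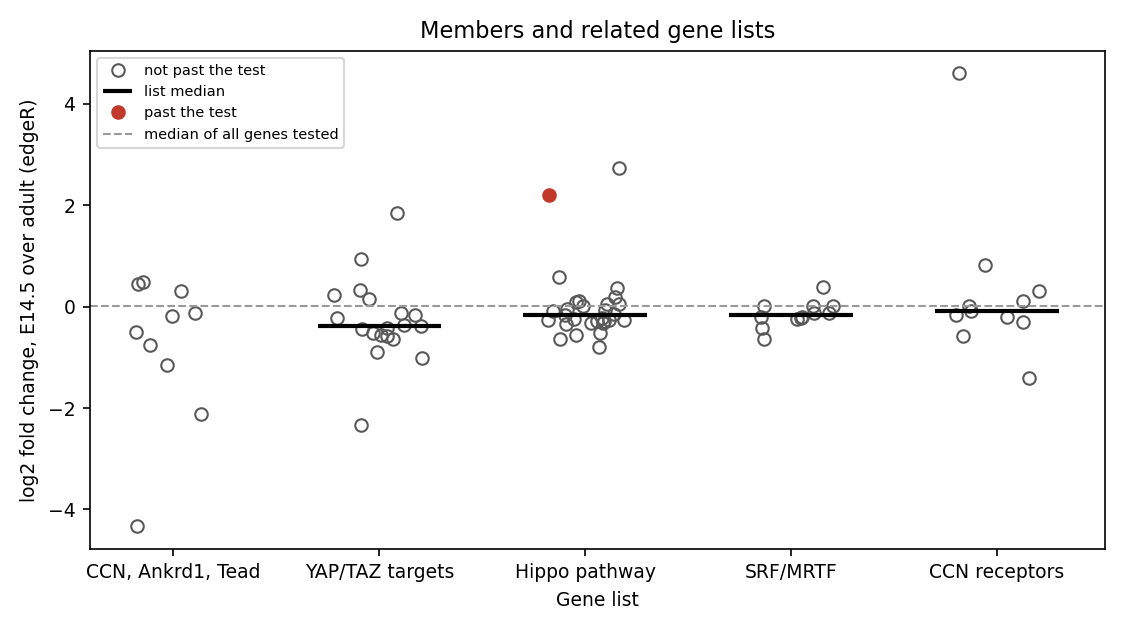
The log2 fold change of E14.5 over adult from edgeR (vertical) for each tested gene of the 10 members and of 4 related lists (horizontal), with filled points for genes past the test, a bar at each related list's median and a dashed line at the median of all genes tested. Amot at 2.19 is the only filled point, and the lowest point of all is Wisp2 at -4.33.

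Genes of the actin-regulated SRF pathway, which shares targets with the TEAD factors, made up a list of 12. Of the 12, 8 were negative, while 51.5% of all genes tested were positive. None of the 12 passed the edgeR test, which 1.08% of all genes passed. Below an unadjusted p of 0.05, 1 was lower and none higher, against 17.9% of all genes. DESeq2 and limma-voom called 0, where they called 10.6% and 1.02% of all genes. The list's median log2 fold change of -0.16 became -0.31 without adult replicate 2, where 11 of the 12 were negative, and -0.05 without adult replicate 1. Acta2, the smooth muscle actin gene, averaged 12918 ± 2828 CPM in E14.5 cultures and 12812 ± 3594 CPM in adult cultures. Tpm1, a tropomyosin gene, averaged 8102 ± 1799 and Tagln, the gene of transgelin, 5639 ± 739 CPM in E14.5 cultures, against 6245 ± 1427 CPM for Tpm1 and 6132 ± 1390 CPM for Tagln in adult cultures (SD, n = 3 each).

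Of 11 genes for receptors that CCN proteins bind, none passed the edgeR test, which 1.08% of all genes passed. DESeq2 called 1 (Itgam), where it called 10.6% of all genes, and limma-voom 0, where it called 1.02%. Below an unadjusted p of 0.05, 2 were higher and none lower, against 17.9% of all genes. These counts are not a result about the list. The list's median log2 fold change of -0.09 became 0.04 without E14.5 replicate 2. Itgb1, the beta-1 integrin chain, averaged 4094 ± 666 CPM in E14.5 cultures and 3298 ± 144 CPM in adult cultures. Itga5, the fibronectin receptor chain, averaged 1236 ± 510 CPM in E14.5 cultures and 1386 ± 573 CPM in adult cultures. Lrp1, an endocytic receptor that binds Ctgf, averaged 1157 ± 42.6 CPM in E14.5 cultures and 1145 ± 313 CPM in adult cultures (SD, n = 3 each). Itgam, an integrin chain of leukocytes named after its values were seen, had the highest log2 fold change of the list. It measured 7.01, 17.2 and 81.9 CPM in E14.5 replicates 1, 2 and 3, against 3.60, 0.298 and 0.422 CPM in adult replicates 1, 2 and 3. It is also 1 of the leukocyte markers summed above and, like their sum, was highest in E14.5 replicate 3.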

How the data were processed

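Each library has a table, deposited by the authors, of raw read counts by gene symbol, with unstranded, forward-strand and reverse-strand columns. STAR and the build mm10 are named in the submitters' processing notes. Version, annotation and counting rule were not given in the sources used here. Stranded poly(A) libraries were read over 75 bp from a single end, per the labels' protocols. The reverse-strand counts were used. The forward strand held 1.33% to 1.69% of stranded gene counts. The 4 rows for unassigned reads (17.4% to 19.8% of counts) were left out.

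Differences were tested in R 4.3.3 with edgeR 4.0.16 (filterByExpr, TMM, robust quasi-likelihood), E14.5 over adult, with Benjamini-Hochberg adjustment over all genes tested and a threshold of 0.05. The SE is the log2 fold change divided by the square root of F, an approximation. Alternatives used DESeq2 1.42.0, limma 3.58.1 (voom), DESeq2 size factors, other filters, a block and left-out libraries. The steps were tested on simulated data. Replicates were numbered in accession order, and the labels do not explain the 3 title prefixes, each carried by 1 library of each group. The members and lists were chosen with earlier results of these data known. Named list genes were those past the test and the 3 of highest CPM not past it. For Ctgf and Tead1, the genes of highest CPM in their families, the 3 genes of nearest pattern were also named. Levels are CPM computed here from the deposited counts, and exon lengths come from GENCODE M21.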

Additional observations from a re-analysis of the deposited data

How the results depend on the processing

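Of 139 recomputed log2 fold changes of the 10 genes, 1 changed sign, 5 passed the test where the main value had not, and 133 kept both. Nov was too low for the filter of 1 CPM in 3 libraries. With 1 library left out, genes past the test ran from 3 to 471 (main 146), those among the 10 members from 0 to 1, in the Hippo list from 0 to 1, and in the YAP/TAZ target list from 0 to 3. DESeq2 called 1427 genes, or 10.6% of those tested, with 1 member, 4 Hippo genes and 5 targets. The limma-voom fit called 1 member, where it called 1.02% of all genes. With adult replicate 2 and E14.5 replicate 3 both left out, an alternative chosen after seeing the data, 36 genes (0.266%) and 1 member were called. With the title prefix as a replicate block, 2 genes and 0 Hippo genes were called, and Amot had an adjusted p = 0.0938 in edgeR. What the prefixes mark is not stated. Deviations from the group means, across 13478 genes that are not independent replicates, correlated at -0.14, -0.23 and -0.09 between libraries of 1 prefix. Between libraries of different prefixes the correlations ran from -0.099 to 0.20. Centring each group on its own mean ties all these values together, so none can be read alone as a sign of pairing. The forward-strand share, however, went by prefix: 1.49% in E14.5 and 1.54% in adult replicates 1, 1.68% in E14.5 and 1.69% in adult replicates 2, and 1.34% in E14.5 and 1.33% in adult replicates 3. A shared handling step was not tested. With 1 library left out, the log2 fold change ran from -0.34 to 0.0796 for Tead3, from -0.21 to 0.17 for Acta2, from -0.56 to 0.0385 for Itga5, from -0.19 to 0.18 for Lrp1 and from -0.21 to 0.0068 for Zc3h7a. With adult replicate 2 and E14.5 replicate 3 both left out it was -0.05 for Acta2 and -0.22 for Lrp1. The causes were not tested. Depth limits Nov alone among the 10, at 8 to 78 counts a library.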
